A study of Homo sapiens with 2 samples.

Results

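YAP and TAZ are transcriptional coactivators that bind DNA through the TEAD factors, and 10 genes known to respond to them are described here in HCT116 cells given a RAF kinase inhibitor: F3, NT5E, AXL, CCN1, CCN2, PTPN14, AJUBA, AMOTL2, ARHGEF17 and ANKRD1. They are 10 of 20045 genes with a named probe on the arrays. HCT116 is a human colorectal carcinoma cell line, and the cells used were labelled p53+/+. Near-confluent cultures received 10 nM SB590885, a compound that inhibits RAF kinases, or its vehicle, and total RNA of each was read on 1 Illumina bead array. The length of treatment is not given in the sources used here. With 1 array in each group there is no replicate error, no test and no p-value for any difference below, and every difference is one between these 2 arrays.

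The genes are known YAP and TEAD targets and were selected on the SB590885 over vehicle log2 ratios of these same arrays, which were known when the list was drawn up. Their ratios are therefore a description of how far each gene differed and not evidence about YAP or TEAD. A probe was taken as detected where the deposited detection p was under 0.01, and a gene where this held on either array. The 10 genes had 16 probes, of which 12 were detected on at least 1 array and 10 on both. ANKRD1 was not detected on either array, which left 9 members among 10430 detected genes.

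In the Hippo pathway the kinases STK3 and STK4 activate LATS1 and LATS2, which phosphorylate YAP and TAZ and keep them out of the nucleus. When the kinases are inactive, YAP and TAZ enter the nucleus, bind TEAD factors and switch on genes for secreted matrix proteins, surface receptors and several of the pathway's own inhibitors. Their binding sites often lie near sites for AP-1, a factor induced by ERK signalling. In the intestine YAP is known for its part in regeneration after injury and in colorectal tumour growth.

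Of the 9 detected members, 8 were lower in SB590885-treated cells and 1, AMOTL2, was higher, while 50.1% of all detected genes were lower. The coagulation receptor gene F3, the ectonucleotidase gene NT5E, the receptor tyrosine kinase gene AXL and the matrix protein gene CCN2 were at least 1.5-fold lower, which is 4 of 9 members, against 1.16% of all detected genes. F3 and NT5E were at least 2-fold lower, a size reached by 0.134% of all detected genes. No member was 1.5-fold higher, as were 1.51% of all detected genes. The members' median log2 ratio was -0.46, and that of all detected genes was 0.00. Since the ratios took part in choosing the members, nothing is read from these shares. In bulk RNA a change in the share of cells that express a gene and a change in RNA per cell cannot be told apart.

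The members differed widely among themselves. Their log2 ratios ran from -1.95 for F3 to a bound of 0.11 for AMOTL2. NT5E, AXL and CCN2 lay between -1.16 and -0.72, and PTPN14 and CCN1 at -0.46 and -0.44. AJUBA, ARHGEF17, AMOTL2 and ANKRD1 were close to their vehicle intensity or near the limit of detection.

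**Figure D1:**
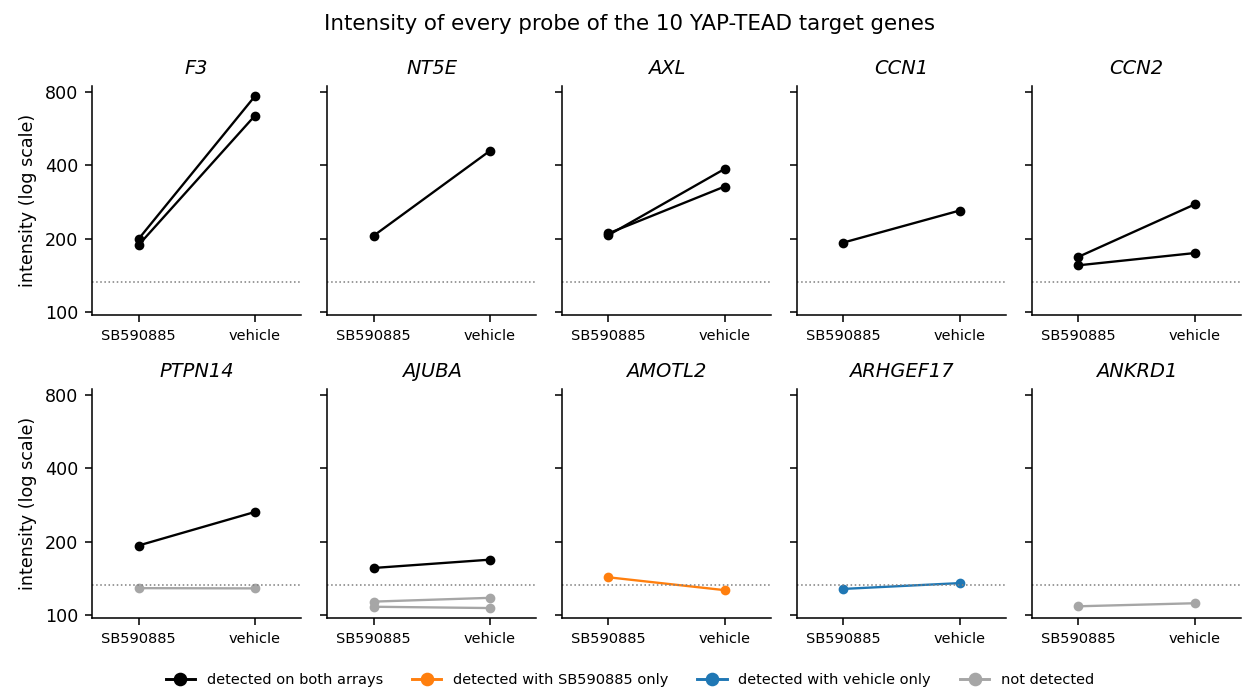
Intensity (linear units, log axis) of all 16 probes of the 10 genes on the SB590885 array (left point of each line) and on the vehicle array (right point); each line is 1 probe, coloured by the arrays on which it was detected, and the dotted line is the lowest detected vehicle intensity, 132. The lines of F3 are the steepest, followed by that of NT5E, each lower on the SB590885 side. The probes of AMOTL2 and ARHGEF17 lie near the dotted line, and that of ANKRD1 lies below it.

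The upstream sequences of 4 members are shown because they carry the letters that TEAD or AP-1 factors read, and because these genes span the range seen here: F3 had the lowest ratio, CCN2 was 1.64-fold lower, AMOTL2 was the member with a higher value and ANKRD1 was not detected. Each is the 250 bases before the annotated start, 5′ to 3′ on the gene's strand, from RefSeq's GRCh38.p14 annotation, with motif matches in capitals. The strand is minus for all 4 genes, and the spans are chr1:94541760-94542009 for F3, chr6:131951373-131951622 for CCN2, chr10:90921088-90921337 for ANKRD1 and chr3:134374448-134374697 for AMOTL2, which has a further annotated start.
F3: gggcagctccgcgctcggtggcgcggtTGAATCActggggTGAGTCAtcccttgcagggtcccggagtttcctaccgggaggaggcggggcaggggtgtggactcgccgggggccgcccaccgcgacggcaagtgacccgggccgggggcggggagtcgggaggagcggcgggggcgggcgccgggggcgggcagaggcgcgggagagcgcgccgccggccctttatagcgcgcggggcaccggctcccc
CCN2: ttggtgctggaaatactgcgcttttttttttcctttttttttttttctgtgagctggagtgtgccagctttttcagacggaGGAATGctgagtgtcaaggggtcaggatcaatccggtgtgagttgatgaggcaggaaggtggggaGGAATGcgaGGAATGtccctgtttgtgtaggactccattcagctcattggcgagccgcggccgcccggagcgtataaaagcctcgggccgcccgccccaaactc
ANKRD1: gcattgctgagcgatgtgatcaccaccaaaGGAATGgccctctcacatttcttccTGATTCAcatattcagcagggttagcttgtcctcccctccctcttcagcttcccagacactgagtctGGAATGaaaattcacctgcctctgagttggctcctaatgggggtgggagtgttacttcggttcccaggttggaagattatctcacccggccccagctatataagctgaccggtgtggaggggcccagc
AMOTL2: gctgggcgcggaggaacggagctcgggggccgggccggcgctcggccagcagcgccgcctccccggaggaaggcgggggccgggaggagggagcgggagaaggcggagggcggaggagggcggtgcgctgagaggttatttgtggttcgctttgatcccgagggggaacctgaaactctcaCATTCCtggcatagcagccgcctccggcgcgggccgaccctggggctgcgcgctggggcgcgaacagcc

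The motifs searched were GGAATG for TEAD (CATTCC on the other strand), TGANTCA for AP-1, which reads as itself on the other strand, and the CArG box of the serum response factor, each in a window from 250 bases before to 50 after the start. F3 held 2 AP-1 matches, starting 223 and 210 bases before its start, and no TEAD match. CCN2 held 3 TEAD matches, starting 169, 104 and 95 bases before the start, and no AP-1 match. ANKRD1 held 2 TEAD matches, at 220 and 128 bases before the start, with 1 AP-1 match at 195. AMOTL2 held 1 TEAD match, at 69 bases before the start shown. None of the matches overlapped.

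RefSeq promoters were matched for 8 members, with 11 windows because AXL, AJUBA and AMOTL2 have 2 starts each. CCN1 and ARHGEF17 are named only. The TEAD letters stood in 6 of 11 windows (AXL, CCN2, PTPN14, AJUBA, AMOTL2 and ANKRD1), against 14.0% of 35116 promoters of all genes and 11.1% of 12199 promoters of detected genes. The further TEAD-bound genes described below held these letters in 4 of 9 windows, so the share was not particular to the members. The AP-1 letters stood in 2 windows, those of F3 and ANKRD1, against 7.71% of all promoters and 5.06% of promoters of detected genes. The CArG box stood in 0 of 11 windows, against 1.29% of all promoters. The windows of NT5E held none of the 3 motifs. F3 and NT5E, with the lowest ratios, held no TEAD letters in these windows. CCN2, also at least 1.5-fold lower, held 3 matches, and AMOTL2, which was detected with SB590885 only, held 1. Since the ratios took part in choosing the members, no relation between letters and ratio is read from this. A match is a description of the letters only, and known TEAD-bound enhancers lie outside these windows.

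**Figure D2:**
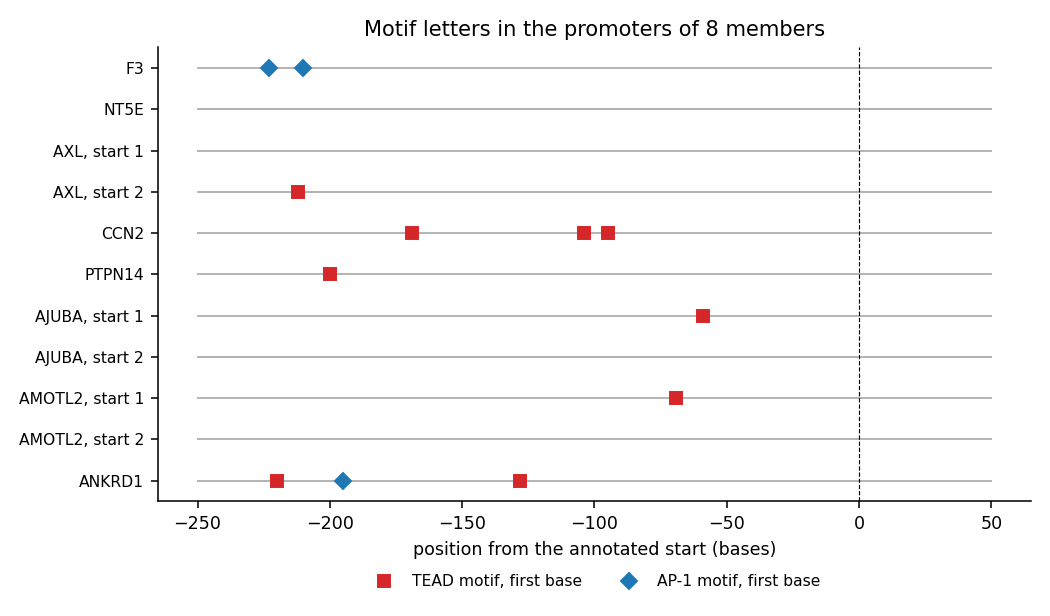
Position of TEAD (red squares) and AP-1 (blue diamonds) letters in the 11 promoter windows of 8 members, as bases from the annotated start (dashed line), with the first base of each match marked. CCN2 has 3 TEAD matches, ANKRD1 has 2 and an AP-1 match, and F3 has 2 AP-1 matches.

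Among members that encode cell-surface proteins, F3 was lowest. F3 encodes tissue factor, the membrane receptor for coagulation factor VII that starts the clotting cascade. Its brighter probe (ILMN_1797009) read 199 with SB590885 and 769.8 with vehicle, which is 3.86-fold lower (log2 ratio -1.95). The other probe (ILMN_2129572) read 188 with SB590885 and 640.3 with vehicle, a log2 ratio of -1.77. The 2 probes thus differed by 0.18 on the log2 scale. No other detected gene had a lower ratio than F3, which includes the 647 genes whose mean intensity lay within 10% of that of F3. The intensity left after SB590885 was 25.9% and 29.4% of the vehicle value on the 2 probes, with background still in the values.

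NT5E encodes CD73, the surface enzyme that turns AMP into adenosine. Its single probe (ILMN_1697220) read 205 with SB590885 and 459 with vehicle, 2.23-fold lower (log2 ratio -1.16). Only 5 detected genes had a lower ratio, and 1 of the 780 genes of like intensity did. AXL encodes a receptor tyrosine kinase of the TAM family that binds GAS6. Its probe ILMN_1701877 read 207 with SB590885 and 387 with vehicle, 1.87-fold lower. Its other probe (ILMN_2364521) read 210.1 with SB590885 and 327 with vehicle, 1.56-fold lower. Both AXL probes thus passed 1.5-fold, at log2 ratios of -0.90 and -0.64, and 28 detected genes had a lower ratio than the brighter one.

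The secreted members were both lower, by different amounts. CCN1 (CYR61) and CCN2 (CTGF) are matricellular proteins of the CCN family that bind integrins, and both are standard readouts of YAP activity. CCN2 read 168 with SB590885 and 276 with vehicle on its brighter probe (ILMN_1699829), 1.64-fold lower (log2 ratio -0.72). Its other probe (ILMN_2115125), annotated to the same transcript, read 155 with SB590885 and 174 with vehicle, a log2 ratio of only -0.17. The difference between the 2 probes, 0.55, was the widest among the 3 members with several detected probes, and 4.79% of 2631 genes with several detected probes differed by 0.5 or more. CCN1 has a single probe (ILMN_2188264), which read 193 with SB590885 and 261 with vehicle, 1.35-fold lower (log2 ratio -0.44). Of all detected genes, 61 had a lower ratio than the brighter CCN2 probe and 315 a lower ratio than CCN1.

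The remaining members act back on the pathway or on the cytoskeleton. PTPN14, a tyrosine phosphatase that holds YAP in the cytoplasm, was detected by 1 of its 2 probes (ILMN_1917341), which read 193 with SB590885 and 265 with vehicle, 1.37-fold lower. That probe is annotated to a cDNA clone. The PTPN14 probe annotated to the RefSeq transcript (ILMN_1750240) read 128.8 with SB590885 and 128.5 with vehicle, at detection p-values of 0.0208 and 0.0169, just outside the limit. AJUBA, a LIM-domain protein that restrains the LATS kinases, read 156 with SB590885 and 169 with vehicle on ILMN_1687275, a log2 ratio of -0.11, which 3012 detected genes were below. Its other 2 probes were not detected on either array.

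AMOTL2, an angiomotin family protein that binds YAP at cell junctions, was detected with SB590885 only. It read 143 with SB590885 (detection p 0.0039) and 126 with vehicle (detection p 0.0247), and against the lowest detected vehicle intensity it was at least 1.08-fold higher. ARHGEF17, a guanine nucleotide exchange factor, was detected with vehicle only. It read 128 with SB590885 (detection p 0.0273) and 135 with vehicle (detection p 0.0052), at least 1.04-fold lower. Both genes lay at the limit of detection, where only such a bound can be given. ANKRD1, a muscle and stress-induced nuclear protein and a much used YAP target, read 108 with SB590885 and 112 with vehicle, at detection p-values of 0.77 and 0.557, so no fold is given. AMOTL2 and ARHGEF17 lay just inside the detection rule, and the second PTPN14 probe just outside it.

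**Figure D3:**
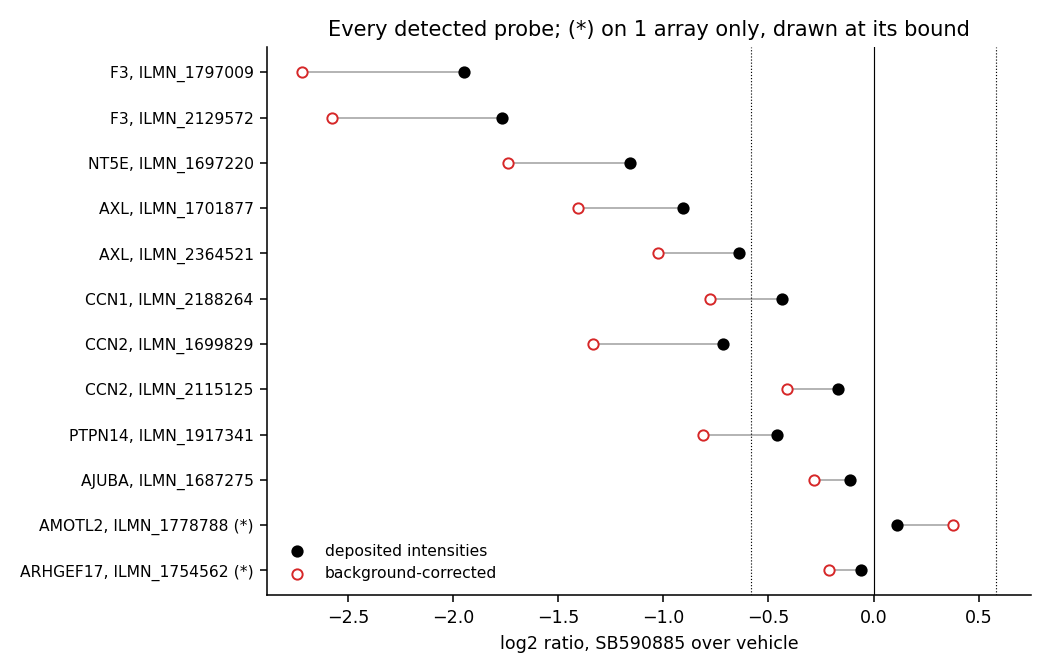
Log2 ratio, SB590885 over vehicle, of the 12 detected probes of 9 members, from the deposited intensities (black) and after background correction (red rings); AMOTL2 and ARHGEF17 were detected on 1 array and are drawn at their bound, and dotted lines mark 1.5-fold. Correction moved every ratio away from 0, and the order F3, NT5E, AXL, CCN2 held for each gene's brighter probe.

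Background was left in the deposited intensities: a detection p of 0.5 corresponded to an intensity of about 112 on both arrays, and the ratios of dim genes are compressed by it. After limma's neqc correction with an offset of 16, F3 was 6.59-fold lower, NT5E 3.35-fold, AXL 2.65-fold and CCN2 2.53-fold. PTPN14 was 1.75-fold and CCN1 1.72-fold lower on that scale, so that 6 of 9 members were at least 1.5-fold lower, against 4.63% of all detected genes. With genes detected on 1 array counted at their bound, no member was 1.5-fold higher after correction, as were 5.16% of all detected genes. AMOTL2, which has only a bound, was at least 1.30-fold higher and ARHGEF17 at least 1.16-fold lower after correction. The second CCN2 probe stayed at 1.33-fold lower and the second AXL probe was 2.04-fold lower.

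**Figure D4:**
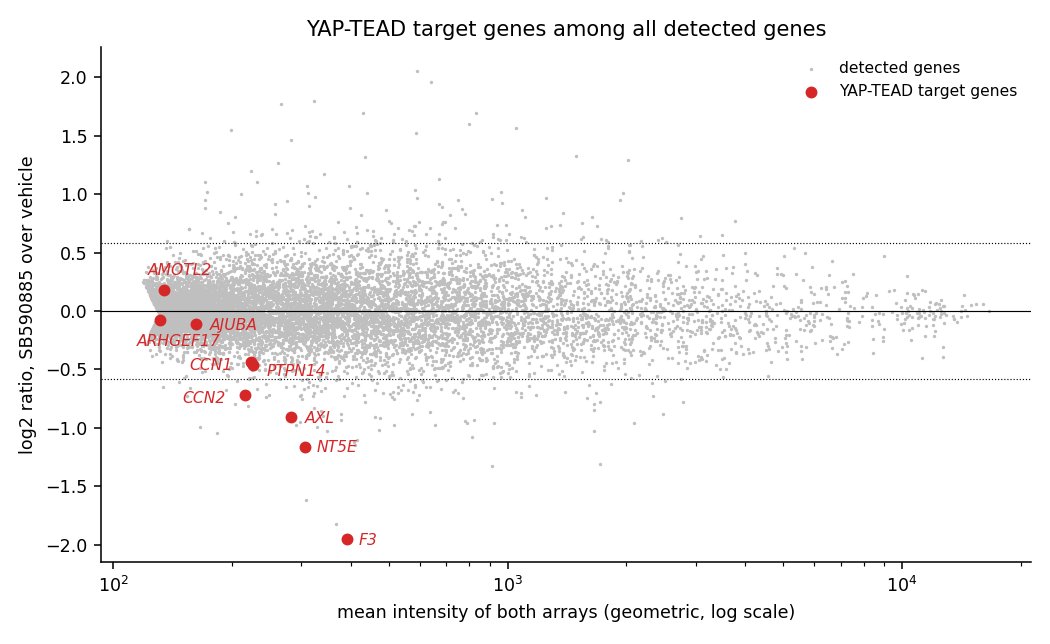
Log2 ratio, SB590885 over vehicle, against the geometric mean intensity of both arrays (log axis) for 10430 detected genes (grey) and the 9 detected members (red), all at their measured ratio, with dotted lines at 1.5-fold. F3 is the lowest point, at -1.95, and NT5E, AXL and CCN2 lie below the lower dotted line.

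A gene read by several probes is the nearest thing to a repeated measurement here. Over 2631 genes with several detected probes, the ratios of the 2 brightest probes differed by a median of 0.15 and with an SD of 0.25 on the log2 scale. The ratios of F3, NT5E and AXL lay farther from 0 than this SD by every detected probe, and those of CCN1, PTPN14 and the brighter CCN2 probe did so by their single or brighter probe. The ratios of AJUBA, AMOTL2, ARHGEF17 and the second CCN2 probe lay within it. Probes of a gene share the RNA sample and the array, so this spread holds no variation between cultures. It is the spread of a difference between 2 probes, and for a single probe it comes to 0.175. The log2 ratios of all detected genes had an SD of 0.24. Since the ratios took part in choosing the members, nothing is read from which of them lay beyond these spreads.

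By position the members do not lie together. F3, CCN1 and PTPN14 are on chromosome 1, NT5E and CCN2 on chromosome 6, and the others on chromosomes 3, 10, 11, 14 and 19. For each detected member the 20 nearest detected genes, 10 on either side in RefSeq's order, had a median log2 ratio between -0.07 (around AMOTL2) and 0.09 (around CCN2). The neighbours of F3 had a median of -0.02 and those of NT5E 0.05. Next to CCN1, with no protein-coding gene between them, lies DDAH1, which encodes an enzyme that degrades asymmetric dimethylarginine. DDAH1 was 1.69-fold lower, at 232 with SB590885 and 392 with vehicle, and it is itself part of a wider YAP signature.

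Further TEAD-bound genes outside the 10 were set beside them. Of 13 such genes, 7 were detected, of which 6 were lower and 1 higher, with 1 at least 1.5-fold lower. Among all detected genes 50.1% were lower and 1.16% at least 1.5-fold lower. The list was compiled with earlier results of these data known, and its median log2 ratio was -0.26, or -0.15 with genes detected on 1 array at their bound. ASAP1, a GTPase-activating protein for Arf GTPases, was 1.62-fold lower (452 with SB590885, 731 with vehicle), and its other 2 probes had log2 ratios of -0.67 and -0.36. FJX1, the homologue of the Drosophila four-jointed kinase, had -0.38. The membrane-repair protein gene MYOF had -0.26 on its brightest probe, and -0.26 and -0.07 on the others. CRIM1, a transmembrane regulator of bone morphogenetic proteins, passed detection on the vehicle array alone, which makes it 1.11-fold lower or more. GADD45A, a stress-induced growth arrest gene, had -0.05, DOCK5, an exchange factor for Rac, had -0.03. NUAK2, an AMPK-related kinase gene, was detected with SB590885 only, at 132 against 129.9 with vehicle, and its bound gives no fold. LATS2, IGFBP3, FOXF2, CCDC80, TGFB2 and RBMS3 were not detected on either array.

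A wider YAP signature was taken from genes that respond to YAP in other cells and holds many cell-cycle genes. Its median log2 ratio lay closer to that of all detected genes than the members' median did. Among all detected genes 50.1% were lower, 1.16% at least 1.5-fold lower and 1.51% at least 1.5-fold higher. Of the signature's 37 detected genes 24 were lower and 13 higher, with a median of -0.08. In it 1 gene was at least 1.5-fold lower and 1 at least 1.5-fold higher. After background correction 7 were at least 1.5-fold lower and 3 at least 1.5-fold higher, against 4.63% and 5.16% of all detected genes. The lowest after DDAH1 were GAS6 (-0.58), the ligand of AXL, and the kinetochore gene CENPF (-0.50). GAS6 read 630.1 with SB590885 and 944 with vehicle on its brightest probe, with log2 ratios of -0.44 and -0.06 on its other detected probes. It lies on distal chromosome 13, where 12 of its 13 nearest detected genes were also lower, with a median of -0.51. The highest were NDRG1, a stress-induced gene, which was 1.61-fold higher (724 with SB590885, 451 with vehicle), the membrane-cytoskeleton protein gene MARCKS (0.40) and the endocytic adaptor gene DAB2, which was detected with SB590885 only and was at least 1.26-fold higher.

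On the deposited intensities the factors that carry YAP signals to DNA were mostly near their vehicle level, apart from TEAD2. YAP1 read 587 with SB590885 and 619 with vehicle, a log2 ratio of -0.08. WWTR1, which encodes TAZ, read 169.5 with SB590885 and 146 with vehicle (0.21). TEAD2, 1 of the 4 TEAD genes, read 928 with SB590885 and 502 with vehicle on its single probe, 1.85-fold higher. TEAD4 had 0.15 on its brighter probe and -0.15 on the other detected one, TEAD3 had -0.13, the TEAD cofactor VGLL4 had -0.05, and TEAD1 was not detected. Of the 6 detected genes of this list 3 were lower and 3 higher, with a median of 0.05, while 50.1% of all detected genes were lower. Only TEAD2 was at least 1.5-fold higher, as were 1.51% of all detected genes. After background correction TEAD2 was 2.05-fold and WWTR1 1.47-fold higher.

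Among 12 detected Hippo kinases and scaffolds, 9 were lower and 3 higher, none by 1.5-fold, while 50.1% of all detected genes were lower. The median of the 12 was -0.10. After background correction 1 of them, TNIK, was at least 1.5-fold higher (1.99-fold) and 0 at least 1.5-fold lower. Among all detected genes these shares were 5.16% and 4.63%. WWC1 (KIBRA), an upstream scaffold, had -0.30, the adaptor SAV1 -0.21 and the kinase STK3 -0.20. The kinase genes TNIK (0.53) and STK4 (0.15) were highest, and TAOK3, detected with SB590885 only, was at least 1.05-fold higher. LATS1 with 2 probes, LATS2 with 1 and the upstream tumour suppressor NF2 with 4 were not detected on either array. Junction and polarity genes that bear on YAP were split, 6 lower and 7 higher of 13 detected, with a median of 0.03. TJP1, the tight junction protein ZO-1, had -0.40 on its brighter probe and -0.54 on the other. CTNNA1, alpha-catenin, had -0.25 and -0.09 in the same order, while the polarity gene CRB3 had 0.54 on its brightest probe and 0.08 on another. The giant cadherin gene FAT1 had 0.36 and the polarity gene LLGL1 0.27. Its relative LLGL2 passed detection on the vehicle array alone, at 1.06-fold lower or more.

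CCN1, CCN2 and ANKRD1 are also known targets of the serum response factor and its MRTF coactivators, which read actin dynamics. Of 18 detected genes of that programme 13 were lower and 5 higher, with a median of -0.15, while 50.1% of all detected genes were lower. In this list 1 gene was at least 1.5-fold lower and 1 at least 1.5-fold higher, against 1.16% and 1.51% of all detected genes. Vinculin (VCL), an adhesion protein, was 1.54-fold lower (1470.1 with SB590885, 2266 with vehicle) and had -0.35 on its other probe, and the LIM-domain gene FHL2 had -0.58 and -0.64 on its 2 detected probes. Zyxin (ZYX), of focal adhesions, had -0.49 on its brighter probe but 0.20 on the other. SRF itself, which encodes the serum response factor, had -0.47. TAGLN2, a transgelin, went the other way and was 1.93-fold higher (1043 with SB590885, 540.2 with vehicle), with 0.47 on its other probe. MRTFB (0.25), a coactivator of the serum response factor, and the myosin light chain gene MYL9 (0.16) were next highest. The other MYL9 probe had -0.09.

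**Figure D5:**
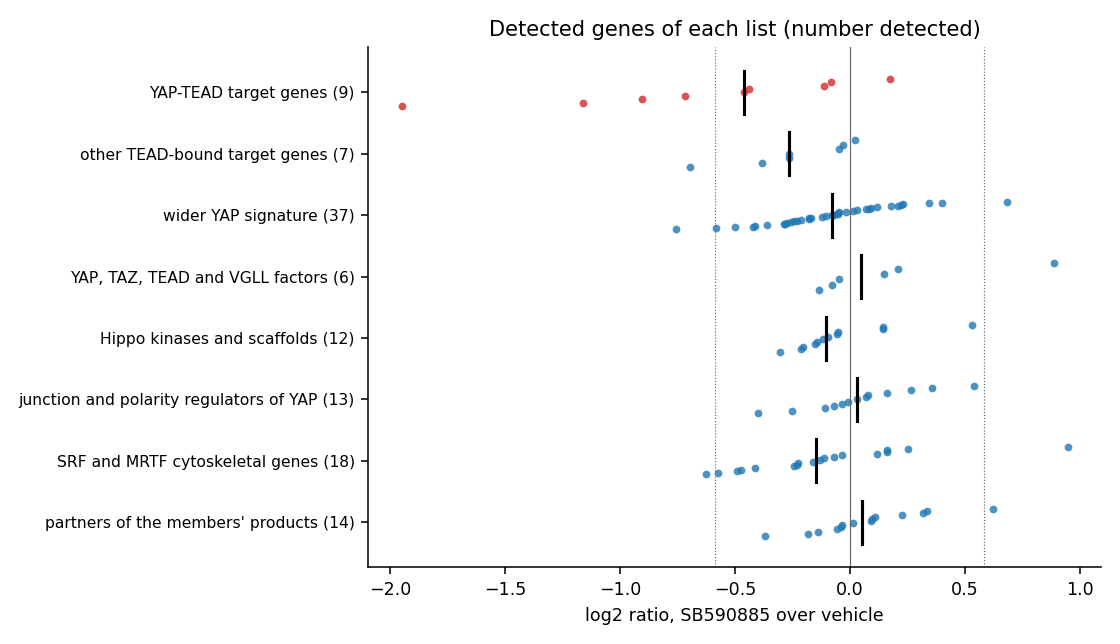
Log2 ratio, SB590885 over vehicle, of each detected gene (points) in the YAP-TEAD target genes and 7 companion lists, with the number of detected genes in brackets, the median as a black bar and dotted lines at 1.5-fold. Genes detected on 1 array are drawn at their measured ratio, not at their bound. The 9 detected members have a median of -0.46, the 7 other TEAD-bound genes -0.26, and the medians of the remaining lists lie between -0.15 and 0.05.

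Genes whose products work with those of the members were split in direction. Of 14 detected partners and relatives 6 were lower and 8 higher, with a median of 0.05, while 50.1% of all detected genes were lower. In this list 0 genes were at least 1.5-fold lower and 1 at least 1.5-fold higher, against 1.16% and 1.51% of all detected genes. After background correction these were 1 and 3, against 4.63% and 5.16%. For AXL, the related receptor gene MERTK had -0.37 (154 with SB590885, 199 with vehicle) and -0.15 on its other probe, whereas TYRO3 had 0.09. Of its ligands, PROS1 had 0.32 and GAS6, given above, -0.58. For tissue factor, its inhibitor TFPI had -0.06 and the thrombin receptor F2R 0.10, and coagulation factor genes F7 and F10 were not detected. For CD73, the adenosine receptor gene ADORA1 had 0.11 on its brightest probe. Another ADORA1 probe, detected with vehicle only, read 127 with SB590885 and 134 with vehicle. The receptor gene ADORA2B had -0.18, and adenosine deaminase (ADA) had 0.23. ENTPD1, whose product makes the substrate of CD73, and the related ENTPD2 were not detected. In the CCN family CCN3 had 0.34 (171 with SB590885, 135 with vehicle), opposite in sign to CCN1 and CCN2, and CCN4, CCN5 and CCN6 were not detected. The integrin subunit gene ITGAV, through which CCN proteins bind cells, had -0.14.

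The labelled cell type was checked against its markers. Of 11 colon epithelial markers 6 were detected, EPCAM, CDH1, KRT8, KRT18, KRT19 and CDX2, and KRT20, VIL1, CDX1, LGALS4 and GPA33 were not. Of the 6, 5 were lower and 1 higher, with a median log2 ratio of -0.11, while 50.1% of all detected genes were lower. The summed intensity of the 6 was 13913 with SB590885 and 12709 with vehicle. The higher sum came from the brightest probe of EPCAM (0.54), whose other probes had -0.12 and 0.11. Several members are also abundant in fibroblasts. Of 8 fibroblast markers, COL1A1 was detected on both arrays, COL1A2 with vehicle only and DCN with SB590885 only. The summed intensity of these detected markers was 412 with SB590885 and 413 with vehicle, most of which is background. COL3A1, LUM, PDGFRA, PDGFRB and THY1 were not detected on either array. Of 7 leukocyte and endothelial markers with a named probe only CD68 was detected, at 0.07 on its brightest probe and -0.14 on another. The array detected 35.3% of 47318 probes with SB590885 and 33.7% with vehicle.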

How the data were processed

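Total RNA of HCT116 cells given SB590885 or vehicle was measured on 1 Illumina array each. The authors' deposited normalized table gives intensity on a linear scale and a detection p-value per probe, per the file headers. How the arrays were scanned and normalized is not stated by any label or header used. The sorted intensities of the arrays differed by at most 0.129, as after quantile normalization. The series matrix holds the same values, and multiplying the normalized table by 1.025 gives the non-normalized one, detection columns included, so that there this deposited column is a score and no longer a p-value. Samples were grouped by their titles.

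Probes were named through the platform's annotation (30111 of 47318 probes with 1 gene, 8 with several, the remaining probes unnamed here). For 30072 probes the Entrez identifier was found in RefSeq's GRCh38.p14 and the symbol was taken from there, whether or not it differed. The array files name no build. Log2 ratios, SB590885 over vehicle, were taken from the deposited intensities (Python 3.11.15), with each gene read by its detected probe of highest mean log2 intensity. On an array where a gene was not detected, the higher of its intensity and the lowest detected intensity (130 with SB590885, 132 with vehicle) stood in, which gives the bounds. The background-corrected alternative was limma 3.58.1's neqc (R 4.3.3), with negative controls inferred from detection p. It starts from values already normalized. Other offsets, pseudocount, detection filters, probe rules and source tables were tried. With 1 array per group no test was run, and the number of arrays limits the precision.

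Members and gene lists were chosen with earlier results of these data known. Named are all members, the TEAD, YAP, TAZ, LATS and NF2 genes, the 3 highest and 3 lowest detected genes of each list, and partners of member products; some of these are not reported here. MYOF, SRF and the genes of a list named as not detected were added after their values were seen. No gene was named for likeness of pattern, since 2 arrays give 1 difference per gene.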

Additional observations from a re-analysis of the deposited data

How the results depend on the processing

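Background correction moved sizes most. The members' median log2 ratio, -0.46 as reported, became -0.81 after neqc (offset 16), -0.64 (offset 50) and -0.92 (offset 1), -0.82 when corrected arrays were centred on their medians, and -0.72 over the 7 members detected on both arrays, where the dim members drop out. It lay between -0.46 and -0.43 in the other 7 alternatives. The number of members at least 1.5-fold lower, 4 as reported, was 3 to 6 in 12 alternatives and 2 by a 2-fold rule. All genes at least 1.5-fold lower, 121 as reported, numbered 483, 241 and 783 under those 3 offsets in the same order, 509 after centring, and 14 by the 2-fold rule. The median of the other TEAD-bound genes, -0.26 as reported, was -0.027 with no detection filter, which adds undetected genes at background. Between 7 and 9 members were lower in 12 alternatives, and no member changed sign in those that gave it a value. CCN2 ranged from -1.55 to -0.17, its second probe giving the smaller size. The series matrix and the table deposited as non-normalized give the same ratios by construction. No paired analysis was possible because each group had 1 array. Signal over background limits AMOTL2, ARHGEF17 and ANKRD1.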
